A study of Mus musculus with 26 samples.

Results

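The 41 genes described here encode the constitutive proteasome of mouse cells and were taken from 19938 genes measured on Affymetrix Mouse Gene arrays. They were chosen by symbol alone: every gene in the Psma, Psmb, Psmc and Psmd series other than Psmb8, Psmb9 and Psmb10, plus the activator genes Psme1, Psme2, Psme3 and Psme4. Each gene was read from its brightest probe set. The symbol pattern also takes Psmc3ip, which encodes HOP2, a meiotic recombination factor that is no part of the proteasome. It is counted with the rule and described apart, and 40 genes remain without it. By role the 40 were 8 genes of the 20S alpha ring, 8 of the 20S beta ring, 6 ATPases and 11 non-ATPase subunits of the 19S cap, 3 chaperones of 19S assembly (Psmd5, Psmd9 and Psmd10) and 4 activators. The alpha genes include Psma8, known as the testis form, and the beta genes include Psmb11, known as the thymus form.

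RNA came from Ba/F3/gp130 cells, a mouse pro-B line into which gp130 was introduced and whose growth depends on Hyper-IL-6, a fusion of IL-6 with its soluble receptor. All groups share that parent line, its Hyper-IL-6 culture, 4 washes in PBS and 4 h in medium without serum. Cells with natural IL-22 receptors (IL-10R2/IL-22Rα1) were untreated (n = 4 arrays) or given IL-22 (n = 4). Cells with synthetic receptors (mCherryVHH-IL-10R2/GFPVHH-IL-22Rα1), whose outer parts are nanobodies, received a fusion of GFP and mCherry (GFP-mCherry, n = 6), mCherry-Fc (n = 6) or nothing (n = 6). Each protein was used at 100 ng/ml for 2 h. No group received a control protein, so ligand and added protein cannot be told apart in contrasts with untreated cells. The labels give neither the number of clones behind each line nor whether the arrays of a group are separate cultures, so p-values measure the spread between these arrays, which may be technical.

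The proteasome degrades proteins tagged with ubiquitin. Its 20S core is a barrel of stacked rings: outer alpha rings gate the entrance, and inner beta rings hold the cutting sites, with Psmb5, Psmb6 and Psmb7 supplying the chymotrypsin-like, caspase-like and trypsin-like activities. The 19S cap recognises, unfolds and feeds tagged proteins into the core, and PA28 (Psme1 and Psme2, or Psme3) and PA200 (Psme4) are alternative caps. The transcription factor encoded by Nfe2l1 is known to raise proteasome genes together when proteasome capacity is short, through antioxidant response elements near their starts. In lymphoid cells, interferon signals are known to exchange the catalytic subunits for Psmb8, Psmb9 and Psmb10, the immunoproteasome.

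Because many members moved together in cells with synthetic receptors, their promoters were read for known elements. RefSeq promoter windows of the GRCm38.p6 assembly were each 300 bases long, from 250 bases before to 50 after a start site. Of the 41 genes, 34 were read, in 37 windows. Member windows on a chromosome that was set aside were not read, whereas the set of all windows kept that chromosome. The shares of member windows and of all windows below therefore do not cover the same chromosomes. The antioxidant response element core (TGACNNNGC, either strand) lay in 6 of the 37 windows, or 16.2%, against 12.4% of all 32851 windows. The matches are printed in capitals with their flanks, on the strand that carries the element. Psmb5 and Psmb6 are the 2 of these 6 genes that rose with GFP-mCherry, where 24 of all 41 members rose.
Psmb5, chr14:54618024-54618052, minus strand: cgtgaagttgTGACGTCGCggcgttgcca
Psmb6, chr11:70525338-70525366, plus strand: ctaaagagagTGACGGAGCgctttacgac
Psmc6, chr14:45329587-45329615, minus strand: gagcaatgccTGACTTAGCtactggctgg
Psmd9, chr5:123228149-123228177, plus strand: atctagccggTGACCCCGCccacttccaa
Psmd12, chr11:107479278-107479299, minus strand: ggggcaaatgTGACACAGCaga
Psme4, chr11:30771758-30771786, minus strand: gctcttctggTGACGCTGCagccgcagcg

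The whole windows of 3 catalytic or ring subunits show these elements in place. Psmb5 and Psmb6 hold the element core (capitals), beginning 47 and 9 bases before the start site. Psma7, the alpha subunit with the largest change, holds no such core in its window and has a CCAAT box (capitals) 196 bases before its start site.
Psmb5, chr14:54617946-54618245, minus strand: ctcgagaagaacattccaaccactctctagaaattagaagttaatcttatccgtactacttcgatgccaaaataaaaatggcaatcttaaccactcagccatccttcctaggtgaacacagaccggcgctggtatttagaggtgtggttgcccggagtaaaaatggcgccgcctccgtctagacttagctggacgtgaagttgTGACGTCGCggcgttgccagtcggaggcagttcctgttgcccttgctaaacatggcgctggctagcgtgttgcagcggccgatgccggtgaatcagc
Psmb6, chr11:70525107-70525406, plus strand: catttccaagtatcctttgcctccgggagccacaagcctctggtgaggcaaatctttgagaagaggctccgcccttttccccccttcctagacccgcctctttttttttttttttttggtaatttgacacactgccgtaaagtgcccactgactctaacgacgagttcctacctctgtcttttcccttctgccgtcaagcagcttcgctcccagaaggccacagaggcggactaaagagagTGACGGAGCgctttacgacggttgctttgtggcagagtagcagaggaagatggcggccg
Psma7, chr2:180042415-180042714, minus strand: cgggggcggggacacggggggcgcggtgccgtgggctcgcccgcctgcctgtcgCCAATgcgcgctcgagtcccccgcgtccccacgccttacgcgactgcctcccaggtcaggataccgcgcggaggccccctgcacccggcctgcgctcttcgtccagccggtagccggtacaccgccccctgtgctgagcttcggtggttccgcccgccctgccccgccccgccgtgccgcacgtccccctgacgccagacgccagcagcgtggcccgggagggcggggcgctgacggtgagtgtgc

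Other elements, sought on both strands, were found at these shares. The STAT inverted repeat TTCNNNGAA lay in 1 member window (Psmd2), or 2.7%, against 8.3% of all windows. The E-box CACGTG lay in 3 (8.1% against 7.2%) and the CCAAT box in 14 (37.8% against 37.4%). The ETS core CCGGAAG lay in 14 windows of 13 genes, 37.8% against 8.9% of all windows. With GFP-mCherry 5 of those 13 genes rose, where 24 of all 41 members rose. The partial NRF1 palindrome GCGCATGC lay in 2 (5.4% against 2.7%). These are matches of letters in a short window, with no test.

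Members were bright genes. The mean level of the median member stood at the 91.9th percentile of all genes, and 40 of the 41 were above the median gene. Psmb11 was the exception, at the 28.6th percentile (mean log2 intensity 5.34), and Psmc3ip (6.97) and Psma8 (7.51) followed. The general level of the arrays differed slightly between groups: array medians over all probe sets were 6.20 to 6.26 in untreated natural receptor cells, 6.17 to 6.23 with IL-22, 6.17 to 6.28 in untreated synthetic receptor cells, 6.06 to 6.13 with GFP-mCherry and 6.06 to 6.14 with mCherry-Fc. Of 12 measured B lineage markers, Cd79a, Cd79b and Ptprc had group means of 8.80 or more, whereas Pax5 (5.28 to 5.55), Ebf1, Rag1, Rag2, Dntt and Vpreb1 were dim in all groups. The myeloid marker Itgam had a group mean of 10.34 in untreated natural and 5.59 in untreated synthetic receptor cells. The 1 measured erythroid marker, Klf1, fell with IL-22 (-1.12), GFP-mCherry (-0.40) and mCherry-Fc (-0.25), and its part in the members' changes was not tested. In bulk RNA, fewer cells of a type and less RNA per cell cannot be told apart.

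Both synthetic ligands were followed by higher proteasome RNA, whereas IL-22 on natural receptors raised 3 genes. With GFP-mCherry 24 of 41 members rose and none fell, and with mCherry-Fc 20 rose and none fell, at an adjusted p below 0.05 (limma, Benjamini-Hochberg over 19938 genes). Over all genes, 14.2% rose and 11.8% fell with GFP-mCherry, and 14.0% rose and 13.0% fell with mCherry-Fc. The median member changed by 0.20 and 0.17 on the log2 scale, against -0.04 for the median gene in each comparison. With IL-22, 3 members rose and none fell, where 5.39% of all genes rose and 6.03% fell, and the median member changed by 0.04 against -0.02 for the median gene. Changes were small: the largest were 1.45-fold with GFP-mCherry (Psma7), 1.34-fold with mCherry-Fc (Psmd10) and 1.31-fold with IL-22 (Psmd3). The GFP-mCherry and mCherry-Fc comparisons share their 6 untreated arrays, so they are not independent of each other.

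**Figure D1:**
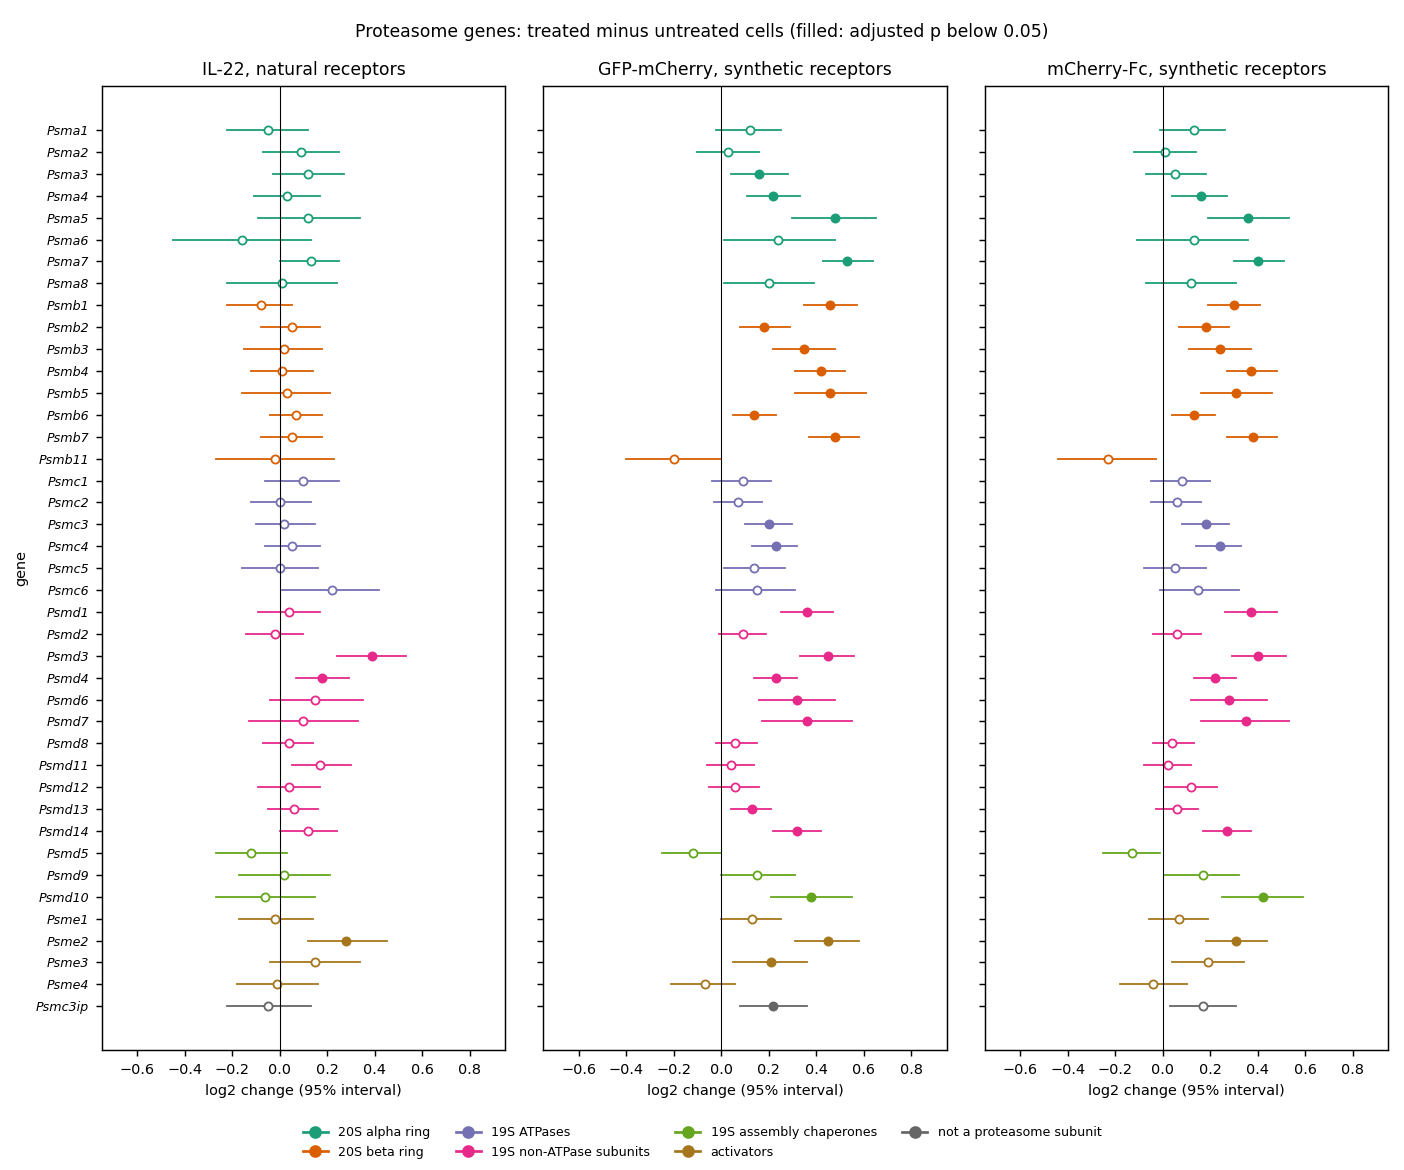
The log2 change (x axis, with 95% interval) of each of the 41 genes (y axis, coloured by role) is plotted for IL-22, GFP-mCherry and mCherry-Fc against untreated cells of the same line, filled where the adjusted p was below 0.05. 3, 24 and 20 points are filled, all to the right of 0.

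Since members are bright, they were also set against bright genes. Among the 8885 genes with a mean log2 intensity of at least 7, 33.6% rose with GFP-mCherry and 33.4% with mCherry-Fc, against 23 and 22 of the 39 members in that set. Among the 4041 genes with a mean of at least 9, 33.4% and 33.5% rose, against 22 and 21 of 36 members. With each array centred on its median, which shifts the median gene from -0.04 to 0.06 and 0.07, 35 and 32 members rose, and rises became 88.5% and 88.8% of all called genes instead of 54.8% and 51.9%. With quantile normalization 20 and 19 members rose, and Psmd5 fell in both comparisons. The part of this general shift in the members' changes was not tested. With IL-22, 4 of 39 members rose at a mean of at least 7, where 11.9% of genes did. At a mean of at least 9 it was 4 of 36 members, where 12.3% of genes rose. Both shares of members are near those of bright genes.

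In the 20S beta ring, 7 of 8 genes rose with each synthetic ligand, and Psmb11 was the 1 that did not. For comparison, 33.6% of genes with a mean of at least 7 rose with GFP-mCherry, 33.4% with mCherry-Fc and 11.9% with IL-22. The median beta gene changed by 0.38 with GFP-mCherry, 0.27 with mCherry-Fc and 0.02 with IL-22, which raised none of the 8. Psmb7 (probe set 10482229), the trypsin-like catalytic subunit, had log2 intensities of 10.57, 10.64 and 10.71 (lowest, median and highest) in the 6 untreated synthetic receptor arrays. With GFP-mCherry these were 11.04, 11.12 and 11.21, and with mCherry-Fc 10.88, 11.03 and 11.12. Every ligand array was above every untreated array. The change was 0.48 (SE 0.05, 1.39-fold, limma adjusted p = 9.58e-08) with GFP-mCherry and 0.38 (SE 0.05, 1.30-fold, adjusted p = 6.57e-06) with mCherry-Fc. In natural receptor cells Psmb7 read 10.53, 10.42, 10.55 and 10.58 untreated and 10.47, 10.57, 10.59 and 10.64 with IL-22, which overlap (change 0.05, SE 0.06, adjusted p = 0.787).

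Psmb5 (probe set 10419810), the chymotrypsin-like subunit and the target of the drug bortezomib, read 8.77, 8.91 and 9.21 in untreated synthetic receptor cells, 9.29, 9.42 and 9.58 with GFP-mCherry and 9.08, 9.26 and 9.41 with mCherry-Fc. GFP-mCherry arrays were all above the untreated ones, and mCherry-Fc arrays overlapped them. The changes were 0.46 (SE 0.07, adjusted p = 3.33e-05) and 0.31 (SE 0.07, adjusted p = 0.00283). With IL-22 Psmb5 read 9.08, 9.31, 9.02 and 9.33, against 9.09, 9.21, 9.17 and 9.15 untreated, and did not pass (0.03, SE 0.09, adjusted p = 0.931). Psmb6 (probe set 10377851), the caspase-like subunit, moved less: it read 10.72, 10.82 and 10.91 untreated, 10.92, 10.95 and 11.01 with GFP-mCherry and 10.86, 10.94 and 11.06 with mCherry-Fc. Its changes of 0.14 (SE 0.04, adjusted p = 0.0203) and 0.13 (SE 0.04, adjusted p = 0.0285) are the least of the called beta genes. The first was lost without untreated replicate 9 (0.12, adjusted p = 0.0583), and the second without untreated replicate 7, 9 or 11 or mCherry-Fc replicate 13, 14 or 15 (0.11 to 0.13, adjusted p of 0.0513 to 0.0847), or with the replicate number as a block (0.16, adjusted p = 0.0594). With IL-22 Psmb6 read 10.81, 10.78, 10.76 and 10.76, all above the 10.74, 10.69, 10.68 and 10.72 of untreated cells, but did not pass (0.07, SE 0.05, adjusted p = 0.536).

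The non-catalytic beta genes rose as well. Psmb1 (probe set 10448048) read 9.73, 9.79 and 9.88 in untreated synthetic receptor cells, 10.13, 10.27 and 10.37 with GFP-mCherry and 9.99, 10.09 and 10.20 with mCherry-Fc. Again no ligand array reached down to the untreated ones, and the changes were 0.46 (SE 0.05, adjusted p = 4.70e-07) and 0.30 (SE 0.05, adjusted p = 0.000235). Psmb4 (probe set 10500034) read 9.53, 9.71 and 9.72 untreated, 10.03, 10.08 and 10.17 with GFP-mCherry and 9.92, 10.05 and 10.16 with mCherry-Fc, with changes of 0.42 (SE 0.05, adjusted p = 9.49e-07) and 0.37 (SE 0.05, adjusted p = 8.67e-06). Psmb3 rose by 0.35 and 0.24, and Psmb2 by 0.18 and 0.18. A second Psmb3 probe set gave 0.23 and 0.12, the latter with an adjusted p over all probe sets of 0.0820. Psmb11 read 5.03 to 5.36 with mCherry-Fc and 5.21 to 5.69 untreated, with changes of -0.20 (adjusted p = 0.140) and -0.23 (adjusted p = 0.0812), at levels where the array measures little.

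**Figure D2:**
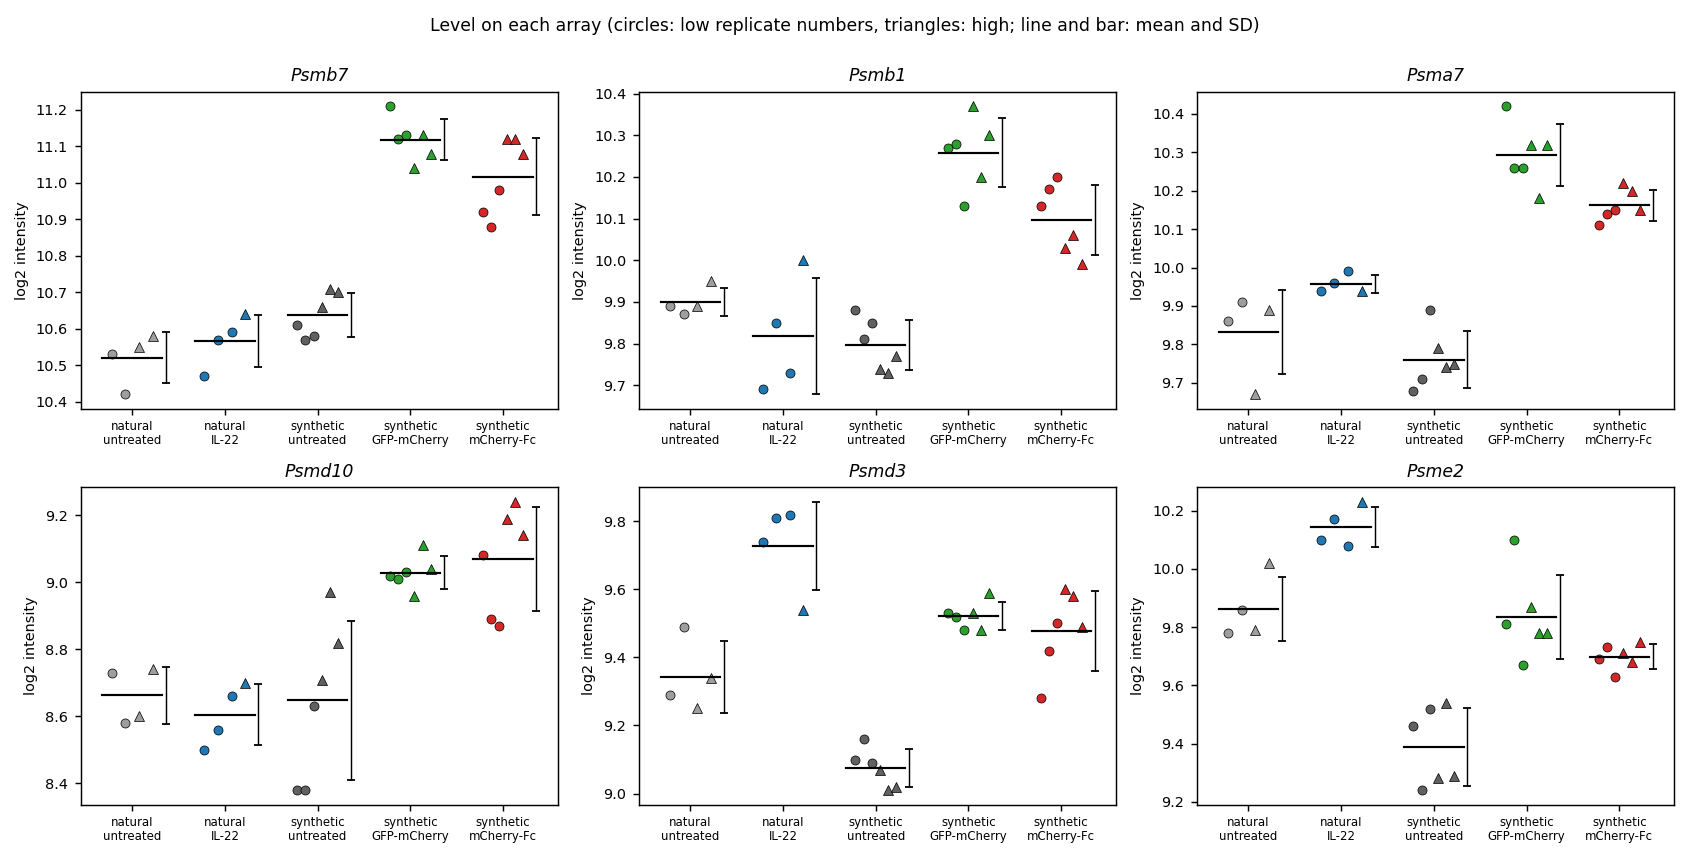
The log2 intensity (y axis) of Psmb7, Psmb1, Psma7, Psmd10, Psmd3 and Psme2 is plotted for every array by group, with low replicate numbers as circles, high ones as triangles, and each group's mean and SD. For Psmb7, Psmb1 and Psma7 all 12 arrays with a synthetic ligand lie above the 6 untreated ones, and for Psma7, Psmd3 and Psme2 the IL-22 arrays also lie above their controls.

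In the alpha ring 4 of 8 genes rose with GFP-mCherry (Psma3, Psma4, Psma5 and Psma7), 3 with mCherry-Fc (Psma4, Psma5 and Psma7) and none with IL-22. Of genes with a mean of at least 7, 33.6% rose with GFP-mCherry and 33.4% with mCherry-Fc. The share of alpha genes with mCherry-Fc is near the latter. Psma7 (probe set 10490370) read 9.68, 9.74 and 9.89 in untreated synthetic receptor cells, 10.18, 10.29 and 10.42 with GFP-mCherry and 10.11, 10.15 and 10.22 with mCherry-Fc. The groups did not overlap, and the changes were 0.53 (SE 0.05, 1.45-fold, adjusted p = 1.11e-08) and 0.40 (SE 0.05, 1.32-fold, adjusted p = 2.00e-06). With IL-22 Psma7 read 9.94, 9.96, 9.99 and 9.94, above the untreated 9.86, 9.91, 9.67 and 9.89 on all arrays, yet the change of 0.13 (SE 0.06) did not pass (adjusted p = 0.226). Psma5 (probe set 10365426) read 9.17, 9.33 and 9.66 untreated, 9.68, 9.85 and 9.99 with GFP-mCherry and 9.51, 9.72 and 9.92 with mCherry-Fc. It changed by 0.48 (SE 0.08, adjusted p = 0.000123) and 0.36 (SE 0.08, adjusted p = 0.00268), and a second probe set gave 0.34 and 0.28.

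The remaining alpha genes moved less. Psma4 rose by 0.22 and 0.16, the latter lost without untreated replicate 7, 9 or 11 or mCherry-Fc replicate 9, 13 or 15 (0.12 to 0.15, adjusted p of 0.0577 to 0.108), or with the replicate number as a block (0.12, adjusted p = 0.232). Psma3 rose by 0.16 with GFP-mCherry (adjusted p = 0.0486), a call that was lost without any of GFP-mCherry replicates 7, 12, 13 and 14 or untreated replicates 7, 9 and 11 (0.13 to 0.17, adjusted p of 0.0625 to 0.136). The values of Psma1 (0.12 and 0.13), Psma2 (0.03 and 0.01), Psma6 (0.24 and 0.13) and Psma8 (0.20 and 0.12) did not pass with either ligand. With IL-22 the 8 alpha genes ranged from -0.16 (Psma6) to 0.13 (Psma7).

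The ATPases of the 19S base, which unfold the substrate, had 2 rises among 6 genes with each synthetic ligand, Psmc3 and Psmc4, and none with IL-22. That share is near the 33.6% and 33.4% of genes with a mean of at least 7 that rose. Psmc4 (probe set 10561356) read 9.69, 9.78 and 9.84 in untreated synthetic receptor cells, 9.97, 10.00 and 10.08 with GFP-mCherry and 9.94, 10.02 and 10.09 with mCherry-Fc. No ligand array fell within the untreated range, and the changes were 0.23 (SE 0.05, adjusted p = 0.000611) and 0.24 (SE 0.05, adjusted p = 0.000567). With IL-22 it read 9.90, 9.99, 9.97 and 9.83 against 9.86, 9.97, 9.75 and 9.89 (0.05, SE 0.06, adjusted p = 0.709). Psmc3 rose by 0.20 and 0.18. Psmc1, Psmc2, Psmc5 and Psmc6 had values of 0.07 to 0.15 with GFP-mCherry and 0.05 to 0.15 with mCherry-Fc and did not pass. For Psmc1 the dimmer probe set 10439878 disagreed with the one used: it rose by 0.28 (adjusted p over all probe sets = 0.000808) and 0.25 (0.00336), against 0.09 and 0.08.

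Of 11 non-ATPase subunits of the 19S cap, 7 rose with GFP-mCherry, 6 with mCherry-Fc and 2 with IL-22. The shares of genes with a mean of at least 7 that rose were 33.6%, 33.4% and 11.9%. Psmd3 (probe set 10380986), a scaffold subunit of the lid, rose with all 3 proteins. It read 9.29, 9.49, 9.25 and 9.34 in untreated natural receptor cells and 9.74, 9.81, 9.82 and 9.54 with IL-22, a change of 0.39 (SE 0.07, 1.31-fold, adjusted p = 0.000218) between groups that did not overlap. In synthetic receptor cells it read 9.01, 9.08 and 9.16 untreated, 9.48, 9.52 and 9.59 with GFP-mCherry and 9.28, 9.50 and 9.60 with mCherry-Fc. The changes, 0.45 (SE 0.06, adjusted p = 1.96e-06) and 0.40 (SE 0.06, adjusted p = 1.24e-05), were again without overlap. Psmd4 (probe set 10500054), a ubiquitin receptor of the cap, also rose with all 3. It read 8.98, 9.06, 8.85 and 9.09 untreated and 9.16, 9.16, 9.16 and 9.21 with IL-22 (0.18, SE 0.05, adjusted p = 0.0311). In synthetic receptor cells it read 9.02, 9.06 and 9.17 untreated, 9.26, 9.31 and 9.37 with GFP-mCherry (0.23, SE 0.04, adjusted p = 0.000318) and 9.25, 9.29 and 9.35 with mCherry-Fc (0.22, SE 0.04, adjusted p = 0.000878).

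Psmd14 (probe set 10472300), the deubiquitinase that strips ubiquitin from the substrate, read 10.63, 10.79 and 10.88 in untreated synthetic receptor cells, 11.07, 11.09 and 11.20 with GFP-mCherry and 10.97, 11.05 and 11.12 with mCherry-Fc. All 12 ligand arrays were above the untreated ones, and the changes were 0.32 (SE 0.05, adjusted p = 1.41e-05) and 0.27 (SE 0.05, adjusted p = 0.000226). With IL-22 Psmd14 read 11.06, 11.14, 11.16 and 11.01 against 11.05, 10.96, 10.89 and 11.00, which did not pass (0.12, SE 0.06, adjusted p = 0.263). Psmd1 (probe set 10348004), the largest scaffold of the base, read 10.69, 10.82 and 10.94 untreated, 11.11, 11.20 and 11.22 with GFP-mCherry and 11.09, 11.19 and 11.25 with mCherry-Fc, with changes of 0.36 (SE 0.05, adjusted p = 1.35e-05) and 0.37 (SE 0.05, adjusted p = 1.90e-05). Psmd7 rose by 0.36 and 0.35, and Psmd6 by 0.32 and 0.28. Psmd13 rose with GFP-mCherry by 0.13, a call lost without GFP-mCherry replicate 7, 13 or 14 or untreated replicate 9 (0.12 each, adjusted p of 0.0533 to 0.0574). Psmd2, Psmd8, Psmd11 and Psmd12 had values of 0.04 to 0.09 with GFP-mCherry and 0.02 to 0.12 with mCherry-Fc and did not pass. Psmd11 was at 0.17 with IL-22 (adjusted p = 0.0675).

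Of the 3 chaperones that help build the 19S base, Psmd10 (gankyrin, probe set 10607004) rose with both synthetic ligands. It read 8.38, 8.67 and 8.97 in untreated synthetic receptor cells, 8.96, 9.03 and 9.11 with GFP-mCherry and 8.87, 9.11 and 9.24 with mCherry-Fc. The untreated arrays were widely spread, and their highest reached into both ligand groups. The changes were 0.38 (SE 0.08, adjusted p = 0.00109) and 0.42 (SE 0.08, adjusted p = 0.000593), and -0.06 (SE 0.10, adjusted p = 0.848) with IL-22, where arrays read 8.50, 8.56, 8.66 and 8.70 against 8.73, 8.58, 8.60 and 8.74. Psmd5 had values below 0 with all 3 proteins (-0.12, -0.12 and -0.13 with IL-22, GFP-mCherry and mCherry-Fc), and Psmd9 had 0.02, 0.15 and 0.17. Neither passed, though Psmd9 did under some alternatives. It passed with both synthetic ligands with the replicate number as a fixed block, its range as a term, or median centring. With mCherry-Fc it also passed with a random block, with array weights and within high replicate numbers.

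Among the activators, Psme2 rose with all 3 proteins. Psme2 (probe set 10420030), which encodes the beta subunit of PA28 and is known as an interferon-inducible gene, read 9.78, 9.86, 9.79 and 10.02 in untreated natural receptor cells and 10.10, 10.17, 10.08 and 10.23 with IL-22 (0.28, SE 0.08, adjusted p = 0.0185). In synthetic receptor cells it read 9.24, 9.38 and 9.54 untreated, 9.67, 9.80 and 10.10 with GFP-mCherry (0.45, SE 0.07, adjusted p = 1.08e-05) and 9.63, 9.70 and 9.75 with mCherry-Fc (0.31, SE 0.07, adjusted p = 0.00113). In each of these comparisons treated and untreated arrays did not overlap. Its partner Psme1 (probe set 10415282), the alpha subunit of PA28, read 11.37, 11.51, 11.59 and 11.54 untreated and 11.50, 11.45, 11.49 and 11.50 with IL-22 (-0.02, SE 0.07, adjusted p = 0.951). In synthetic receptor cells Psme1 read 11.08, 11.30 and 11.51 untreated, 11.35, 11.44 and 11.52 with GFP-mCherry (0.13, SE 0.06, adjusted p = 0.121) and 11.30, 11.37 and 11.45 with mCherry-Fc (0.07, SE 0.06, adjusted p = 0.416). Psme1 thus overlapped in all 3. With GFP-mCherry it passed without untreated replicate 7 (0.17, adjusted p = 0.0426), with median centring (0.23, adjusted p = 0.00214), with array weights (0.14, adjusted p = 0.0495) and within high replicate numbers (0.27, adjusted p = 0.0114), and was at -0.01 within low ones.

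Psme3 (probe set 10381345), the nuclear PA28 subunit, read 10.58, 10.74 and 10.90 in untreated synthetic receptor cells, 10.84, 10.94 and 11.06 with GFP-mCherry and 10.82, 10.93 and 11.04 with mCherry-Fc. It rose with GFP-mCherry (0.21, SE 0.07, adjusted p = 0.0437), while its 0.19 with mCherry-Fc did not pass (SE 0.07, adjusted p = 0.0588). Both calls hung on single arrays: the first was lost without GFP-mCherry replicate 11, 12, 13 or 14 or untreated replicate 7, 9 or 11 (0.17 to 0.21, adjusted p of 0.0657 to 0.113), and the second was gained without untreated replicate 12 or 13 or mCherry-Fc replicate 9 (0.21 to 0.22, adjusted p of 0.0297 to 0.0488), or with the replicate number as a block (0.21, adjusted p = 0.0389). With IL-22 Psme3 read 11.10, 11.13, 11.14 and 10.71 against 11.03, 10.94, 10.78 and 10.72 (0.15, SE 0.09, adjusted p = 0.404), and passed without IL-22 replicate 5, its lowest array (0.25, adjusted p = 0.0410). Psme4 (probe set 10374934), the PA200 cap, read 10.47, 10.64 and 10.82 untreated, 10.46, 10.56 and 10.71 with GFP-mCherry and 10.51, 10.61 and 10.64 with mCherry-Fc, and 10.50, 10.57, 10.56 and 10.79 with IL-22 against 10.55, 10.48, 10.67 and 10.75. Its values of -0.07 (SE 0.07, adjusted p = 0.432), -0.04 (SE 0.07, adjusted p = 0.700) and -0.01 (SE 0.08, adjusted p = 0.979) did not pass. Psmc3ip, the member that is no proteasome gene, rose by 0.22 with GFP-mCherry (adjusted p = 0.0201; 0.18 and 0.0575 without GFP-mCherry replicate 7, 0.19 and 0.0537 without untreated replicate 11) and had 0.17 with mCherry-Fc (adjusted p = 0.0630).

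**Figure D3:**
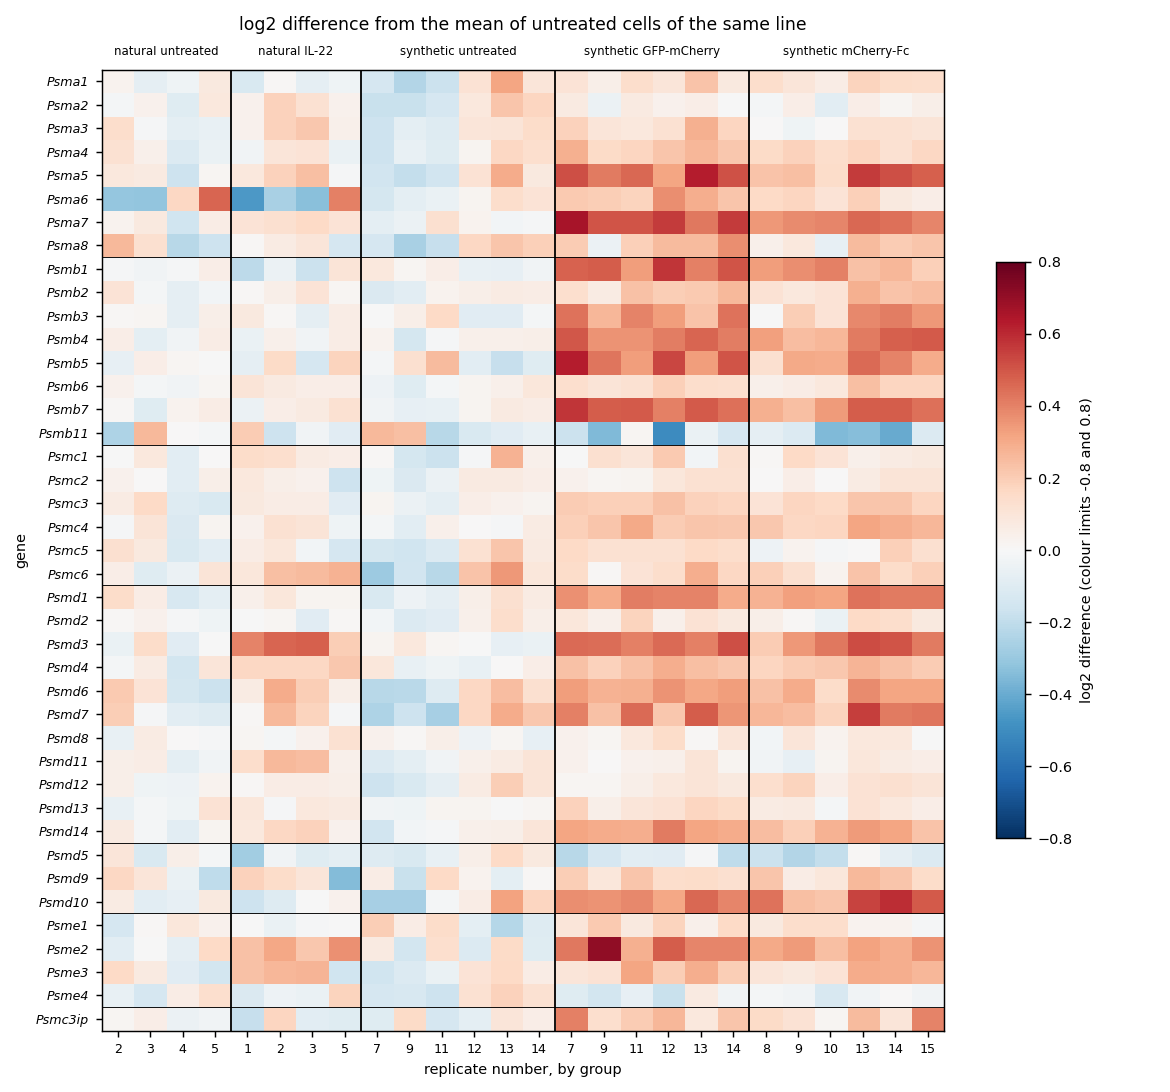
Each cell is the log2 difference of a gene (rows, in order of role) on 1 array (columns, by group and replicate number) from the mean of the untreated arrays of its line, red above and blue below. The beta ring genes other than Psmb11 are mostly red on the GFP-mCherry and mCherry-Fc arrays. With IL-22, Psmd3, Psmd4 and Psme2 are above the untreated mean on all 4 arrays, as are other genes that did not pass.

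The 3 rises with IL-22 were open to single arrays and to pairing. Same-numbered IL-22 and untreated arrays deviated together (r of 0.31 to 0.62 in 3 of 3 pairs), and with the replicate number as a fixed block 1 of the 3 calls was left, Psmd3 (0.35, adjusted p = 0.00682), while Psme2 (0.27, adjusted p = 0.129) and Psmd4 (0.14, adjusted p = 0.216) kept their direction. With the number as a random block, or its range as a term, all 3 passed and Psmd11 joined them. The count was 1 without untreated replicate 2 or 4 or IL-22 replicate 2, and 5 without IL-22 replicate 5. Psmd4 was lost without any of IL-22 replicates 1, 2, 3 and 5 or untreated replicates 2 and 4 (0.13 to 0.18, adjusted p of 0.0564 to 0.159). Psme2 was lost without untreated replicate 2 or 4 or IL-22 replicate 2 (0.25 to 0.27, adjusted p of 0.0518 to 0.0663).

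Replicate numbers fall in a low range (natural 1 to 3, synthetic 7 to 11) and a high range (natural 4 and 5, synthetic 12 to 15), which the labels do not call a batch, and untreated synthetic receptor arrays differed between them. The mean of the 41 genes, relative to all 26 arrays, was -0.19 to -0.15 on the 3 untreated synthetic arrays with low numbers and -0.07 to -0.01 on the 3 with high numbers. It was 0.06 to 0.13 with GFP-mCherry, above all untreated synthetic arrays, and -0.00 to 0.13 with mCherry-Fc. Within low numbers 29 members rose with GFP-mCherry and 20 with mCherry-Fc (medians 0.27 and 0.20), and within high numbers 16 and 19 (medians 0.15 and 0.15). None fell. Over all genes, 16.7% and 13.7% rose within low numbers, and 11.6% and 12.6% within high numbers. Of the 24 called over all arrays with GFP-mCherry, 22 were called within low and 15 within high numbers. With mCherry-Fc it was 15 and 17 of 20. Psmb7, Psmb1, Psma7, Psmb4, Psma5, Psmd1, Psmd3, Psmd4, Psmd14, Psmc3 and Psmc4 passed in both ranges with both ligands. Psmd10 gave 0.56 (adjusted p = 0.000285) within low and 0.21 (adjusted p = 0.0819) within high numbers with GFP-mCherry, and Psmb5 gave 0.12 (adjusted p = 0.368) and 0.50 (adjusted p = 0.000687) with mCherry-Fc. The mCherry-Fc calls of Psmb2 and Psmb3 were also lost within low numbers, where Psmb3 was at 0.03.

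**Figure D4:**
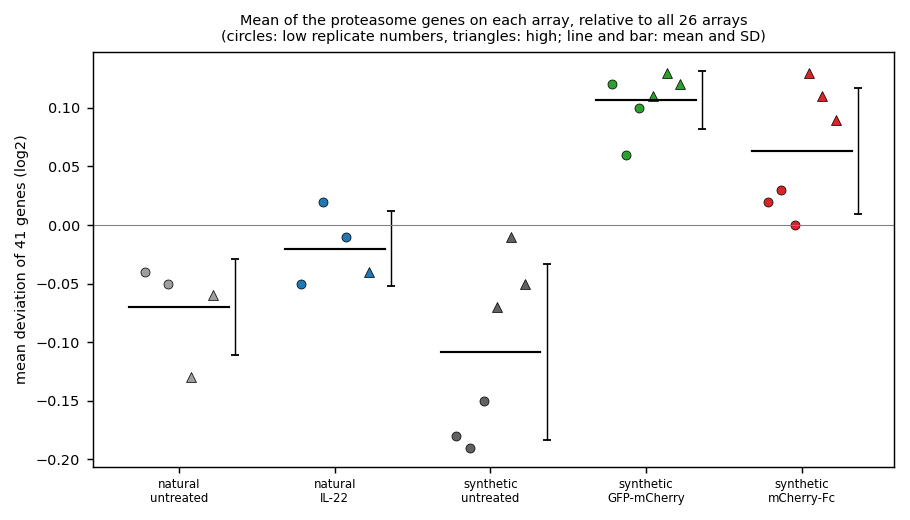
The mean deviation of the 41 genes from their 26-array means (y axis, log2) is plotted for each array by group, with low replicate numbers as circles, high ones as triangles, and each group's mean and SD. GFP-mCherry arrays, at 0.06 to 0.13, lie above all untreated synthetic arrays, whose low numbers lie at -0.19 to -0.15.

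Whether the fusion that can bind both nanobodies differs from mCherry-Fc was asked directly between these groups. No member passed (0 of 41, with 1.09% of all genes called in either direction), and the median member differed by 0.03. At an unadjusted p below 0.05 there were 3 members, all higher with GFP-mCherry: Psmb1 by 0.16 (95% interval 0.05 to 0.27, adjusted p = 0.242), Psme2 by 0.14 (0.00 to 0.27, adjusted p = 0.544) and Psma7 by 0.13 (0.03 to 0.23, adjusted p = 0.363). Among the other subunits with both ligands' values given above, Psmb5 differed by 0.15 (-0.00 to 0.30, adjusted p = 0.583), Psmb7 by 0.10 (adjusted p = 0.587), Psmd14 by 0.06 (adjusted p = 0.828), Psmd4 by 0.02 (adjusted p = 0.973), Psmb6 by 0.01 (adjusted p = 0.986) and Psmc4 by -0.01 (adjusted p = 0.987). The activators Psme1, Psme3 and Psme4 differed by 0.06, 0.01 and -0.04 (adjusted p of 0.864, 0.985 and 0.949). Over the 41 genes the differences ranged from -0.06 (Psmd12) to 0.16, so larger ones are bounded by the intervals and not shown to be absent. Within low replicate numbers 1 member, Psma5, was higher with GFP-mCherry, and with the replicate number as a block there was none.

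The change with GFP-mCherry exceeded that with IL-22 for 8 members and was below it for none, where it was greater for 9.23% of all genes. Among genes with a mean of at least 7 it was greater for 11 of 39 members and 25.3% of genes, which are near each other. At a mean of at least 9 it was greater for 11 of 36 members and 24.3% of genes. The 8 called over all genes were 5 beta genes (Psmb1, Psmb3, Psmb4, Psmb5 and Psmb7) with Psma7, Psmd1 and Psmd10. Psmb1 differed by 0.55 (SE 0.09, adjusted p = 4.86e-05): it was 0.46 higher with GFP-mCherry and had -0.08 with IL-22. Psmd10 differed by 0.44 (SE 0.13, adjusted p = 0.0223), Psmb7 by 0.43 (SE 0.08, adjusted p = 0.000388) and Psmb5 by 0.43 (SE 0.12, adjusted p = 0.0115). Psma7 differed by 0.41 (SE 0.08, adjusted p = 0.000605), Psmb4 by 0.41 (SE 0.08, adjusted p = 0.000731), Psmb3 by 0.33 (SE 0.10, adjusted p = 0.0266) and Psmd1 by 0.32 (SE 0.08, adjusted p = 0.0101). Members that rose with IL-22 did not pass here: Psmd3 differed by 0.06 (95% interval -0.13 to 0.24), Psmd4 by 0.05 (-0.09 to 0.20) and Psme2 by 0.17 (-0.05 to 0.38). Nor did Psmd14 (0.21, adjusted p = 0.0727), Psmc4 (0.17, adjusted p = 0.120), Psmb6 (0.07, adjusted p = 0.586), Psme1 (0.15), Psme3 (0.06) or Psme4 (-0.07).

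For mCherry-Fc the same difference was higher for 6 members and lower for none, with 8.76% of all genes higher. Among genes with a mean of at least 7 it was higher for 7 of 39 members and 25.3% of genes. At a mean of at least 9 it was higher for 6 of 36 members and 23.4% of genes. These shares of members are below those of bright genes. Psmd10 differed by 0.48 (SE 0.13, adjusted p = 0.0145), Psmb1 by 0.38 (SE 0.09, adjusted p = 0.00294), Psmb4 by 0.36 (SE 0.08, adjusted p = 0.00272) and Psmb7 by 0.33 (SE 0.08, adjusted p = 0.00610). Psmd1 differed by 0.33 (SE 0.08, adjusted p = 0.0100) and Psma7 by 0.28 (SE 0.08, adjusted p = 0.0189). Psmb5 was at 0.28 (adjusted p = 0.106) and passed without untreated synthetic replicate 11 (0.34, adjusted p = 0.0435). Psmc4 was at 0.18 (adjusted p = 0.102) and passed without untreated natural replicate 4 (0.22, adjusted p = 0.0463). Psmd14 (0.15), Psmb6 (0.06), Psmd4 (0.04), Psme2 (0.03), Psme3 (0.04), Psme4 (-0.03) and Psme1 (0.09) did not pass.

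These differences compare ligands, receptors and cell lines at the same time, and cannot be told apart from the line. Within low replicate numbers 16 and 14 members were higher in the GFP-mCherry and mCherry-Fc contrasts, where 15.5% and 14.0% of all genes were. The high numbers hold 1 IL-22 array and so detect less. The 8 called differences for GFP-mCherry were 0.31 to 0.64 within low and 0.16 to 0.47 within high numbers, and the 6 for mCherry-Fc 0.27 to 0.57 and 0.21 to 0.37. The lowest within high numbers were Psmd1 (0.16) and Psmd10 (0.18), both for GFP-mCherry. In the first contrast Psmb1 gave 0.50 (adjusted p = 0.00161) within low numbers and 0.47 within high numbers. Psmd10 was lost in the first without IL-22 replicate 1 (0.41, adjusted p = 0.0576), and Psmb3 without IL-22 replicate 3 (0.30, adjusted p = 0.0675) or untreated natural replicate 5 (0.32, adjusted p = 0.0532). Psmd14 was gained without untreated natural replicate 4 (0.23, adjusted p = 0.0465) or untreated synthetic replicate 14 (0.23, adjusted p = 0.0495). With the replicate number as a fixed block, Psmb5 was lost from the first (0.39, adjusted p = 0.0684) and Psma5 gained, and Psmb7 was lost from the second (0.31, adjusted p = 0.0509) and Psmb3 and Psmd9 gained. With arrays centred on their median, 13 and 9 members were higher, and the share of higher calls over all genes went from 67.7% and 65.6% to 83.2% and 82.8%.

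**Figure D5:**
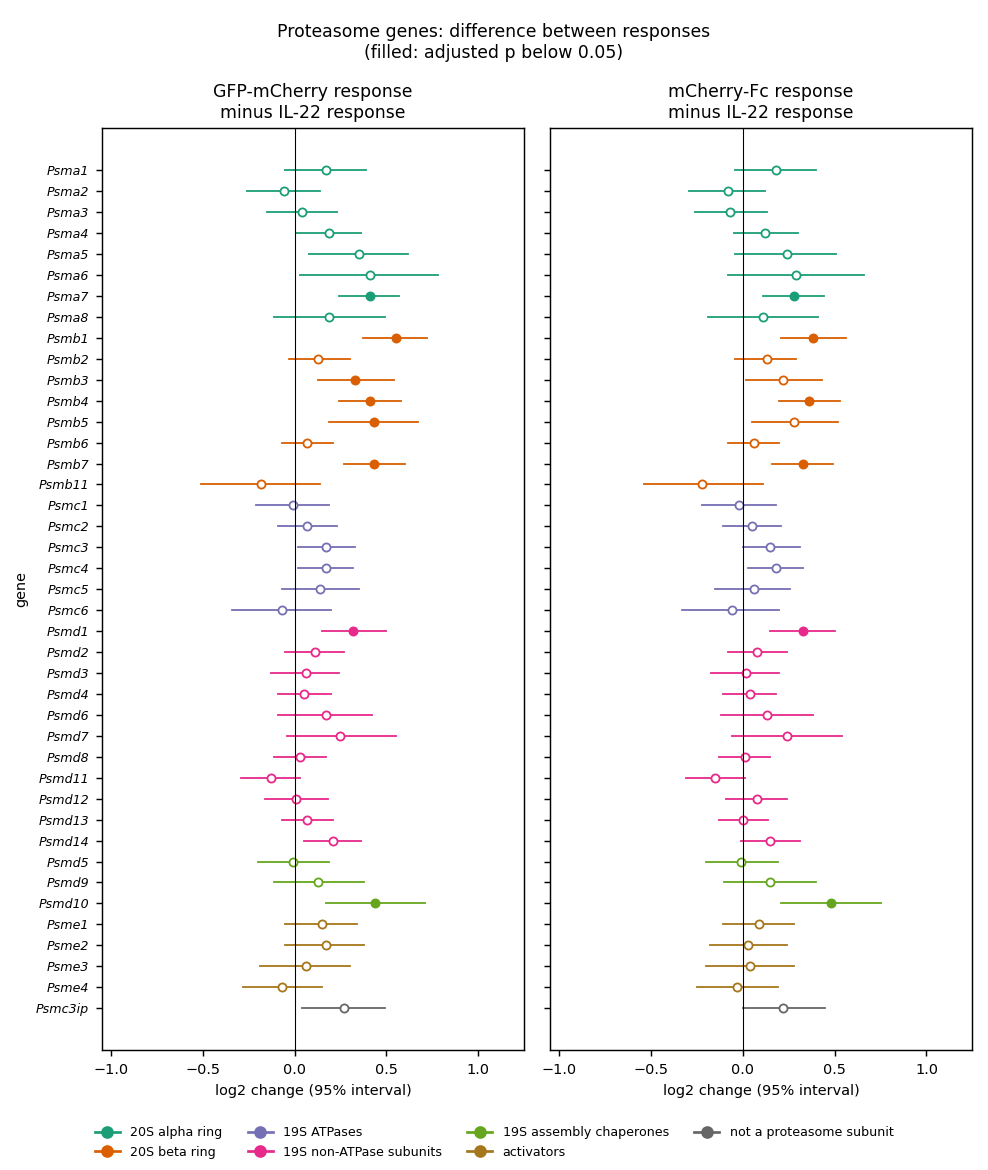
The difference between the response to each synthetic ligand and the response to IL-22 (x axis, log2, with 95% interval) is plotted for each gene (y axis, coloured by role), filled where the adjusted p was below 0.05. 8 points are filled on the left (GFP-mCherry) and 6 on the right (mCherry-Fc), all above 0, and 5 and 3 of these are beta ring genes.

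Before any ligand, 6 members were lower and none higher in synthetic than in natural receptor cells, where 6.62% of all genes were lower and 8.60% higher, and the median member was at -0.00 against 0.01 for the median gene. Among the 8885 genes with a mean of at least 7, 7 of 39 members were lower and 4 higher. There 3195 genes were called, 61.8% of them higher, so that 22.2% of genes were higher. At a mean of at least 9, 8 of 36 members were lower and 3 higher, where 26.8% of genes were higher. The absence of higher members thus did not hold among bright genes. The 6 lower over all genes were Psma6, Psme2, Psmd3, Psmd1, Psmc5 and Psmd14. Psma6 (probe set 10395816), an alpha subunit, read 10.62, 10.61, 11.09 and 11.39 on natural replicates 2, 3, 4 and 5 and 10.11, 10.24 and 10.39 (lowest, median and highest) in synthetic receptor cells. It was 1.60-fold lower (-0.68, SE 0.13, adjusted p = 0.000426) without overlap, and the natural arrays themselves split by replicate number, as they did with IL-22 (10.47, 10.67, 10.59 and 11.33 on replicates 1, 2, 3 and 5). Psme2 was 1.39-fold lower (-0.47, SE 0.07, adjusted p = 3.26e-05) and Psmd3 was lower as well (-0.26, SE 0.06, adjusted p = 0.00484), both without overlap. So 2 of the 3 members that rose with IL-22 and with both synthetic ligands began from lower levels in synthetic receptor cells. The same untreated arrays enter this comparison and the ligand comparisons. The lower start and the rises are therefore not independent of each other.

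The other 3 were less firm. Psmd1 (-0.22, SE 0.06, adjusted p = 0.0125) and Psmd14 (-0.19, SE 0.05, adjusted p = 0.0132) were lost without natural replicate 2 (-0.17, adjusted p = 0.0723, and -0.17, adjusted p = 0.0508). Psmc5 (-0.21, SE 0.07, adjusted p = 0.0418) was lost without natural replicate 2 or 3 or synthetic replicate 7, 9 or 11 (-0.19 to -0.17, adjusted p of 0.0829 to 0.153). Psmb5 was at -0.20 (adjusted p = 0.106) and passed without synthetic replicate 11 (-0.25, adjusted p = 0.0283). Psme1 was at -0.19 (adjusted p = 0.0545) and passed without natural replicate 2 or synthetic replicate 7 or 11 (-0.24 to -0.22, adjusted p of 0.0135 to 0.0261). Psmb7 (0.12), Psmb6 (0.11), Psma7 (-0.07), Psmc4 (-0.09), Psmd4 (0.08), Psme3 (-0.13) and Psme4 (0.02) did not pass. Within low replicate numbers 11 members were lower and none higher, and within high numbers 5 were lower and 11 higher. Over all genes, 11.8% were called within low numbers (4.37% higher) and 28.8% within high numbers (18.3% higher). Psma6, Psme2 and Psmd3 were lower in both ranges. The lines share no replicate number, and the myeloid markers Itgam (-4.75), Mpo (-1.79) and Lyz2 (-1.46) were also lower in the synthetic receptor line, whose part in these differences was not tested.

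The immunoproteasome subunits, which are not among the 41 genes, were read beside them. Psmb10, which replaces Psmb7, rose with IL-22 (0.43, SE 0.07, adjusted p = 9.67e-05), GFP-mCherry (0.49, SE 0.06, adjusted p = 8.16e-07) and mCherry-Fc (0.45, SE 0.06, adjusted p = 4.97e-06). The responses to the synthetic ligands minus that to IL-22 were 0.06 and 0.02 and did not pass, and Psmb10 was lower in untreated synthetic receptor cells (-0.31, adjusted p = 0.00136). Psmb8, which replaces Psmb5, rose with GFP-mCherry (0.35, adjusted p = 0.00301) and mCherry-Fc (0.28, adjusted p = 0.0154), and its 0.27 with IL-22 did not pass. Psmb9, which replaces Psmb6, had 0.07, 0.11 and 0.11 and did not pass.

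Of 13 other proteasome genes 11 were measured, and 7 rose with GFP-mCherry, 8 with mCherry-Fc and none with IL-22. In the same order, 14.2%, 14.0% and 5.39% of all genes rose. The shares were 33.6%, 33.4% and 11.9% of genes with a mean of at least 7. The 20S assembly chaperones Psmg1 (0.25 and 0.24), Psmg2 (0.37 and 0.40), Psmg3 (0.25 and 0.24), Psmg4 (0.39 and 0.40) and Pomp (0.19 and 0.27) rose with both synthetic ligands. So did the cap-bound deubiquitinases Usp14 (0.28 and 0.30) and Uchl5 (0.41 and 0.41), and the ubiquitin ligase Ube3c rose with mCherry-Fc (0.18). The inhibitor gene Psmf1 fell with IL-22 (-0.19, adjusted p = 0.0117). Psmg2 differed from its IL-22 response with both synthetic ligands (0.43 and 0.45, adjusted p of 0.0382 and 0.0287), and Psmg1 with GFP-mCherry (0.20, adjusted p = 0.0485). In untreated cells Usp14 was lower in the synthetic line (-0.22). Sem1 and Ecpas passed in none of these comparisons.

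Of 9 listed regulators of proteasome genes 8 were measured. Nfe2l1 had -0.18 with IL-22 and 0.11 with GFP-mCherry, which did not pass, and rose by 0.19 with mCherry-Fc (adjusted p = 0.0148). Its responses to the synthetic ligands exceeded that to IL-22 by 0.29 and 0.36 (adjusted p of 0.0255 and 0.00552), and in untreated cells it was 0.62 lower on the log2 scale in the synthetic line (fold 0.649, adjusted p = 3.13e-08). Nfe2l2, the gene of the oxidative stress factor NRF2, rose with IL-22 (0.45), GFP-mCherry (0.34) and mCherry-Fc (0.29), and Nfe2l3 fell with the synthetic ligands (-0.21 and -0.24). Of the small Maf partners, Mafk rose with IL-22 (0.82) and mCherry-Fc (0.36), Maff with IL-22 (0.58) and mCherry-Fc (0.29), and Mafg with GFP-mCherry (0.19) and mCherry-Fc (0.27). Mafk rose less with GFP-mCherry than with IL-22 (-0.79, adjusted p = 0.00246) and was 0.37 higher in the untreated synthetic line. Keap1 and Ddi1 passed in no comparison.

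Of 16 genes of ubiquitin supply and shuttling 10 were measured, and 3 rose and 1 fell with each synthetic ligand, shares near those of bright genes that rose (33.6% and 33.4%) and of all genes that fell (11.8% and 13.0%). Vcp, the segregase that pulls tagged proteins from complexes, rose by 0.31 and 0.32, with a difference from the IL-22 response of 0.30 and 0.31 (adjusted p of 0.0187 and 0.0164). The shuttle genes Ubqln4 (0.29 and 0.24) and Ubqln1 (0.14 and 0.17) also rose. Zfand2a, a stress-induced proteasome-binding factor, fell by 0.37 and 0.32 on the log2 scale and differed from its IL-22 response (-0.54 and -0.50), and Zfand5 rose with IL-22 by 0.92 (adjusted p = 6.54e-07) with differences of -0.92 and -0.87. In untreated synthetic receptor cells Rad23b (-0.16) and Zfand2a (-0.21) were lower. Uba6, Ubqln2, Ufd1 and Nploc4 passed in none of these comparisons.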

How the data were processed

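RNA of 26 samples was measured on Affymetrix Mouse Gene arrays, 4 to 6 per group. The values are log2 intensities that the authors deposited, 1 per probe set, made at the level of core genes or exons per the labels and with Expression Console 4.0 per the submitters' processing notes. The summarization and normalization algorithm and the genome build are not given in the sources used here. No counts exist, so the number of arrays limits the precision. Each gene was read from its brightest probe set naming a single symbol. All 26 arrays entered 1 fit with limma 3.58.1 in R 4.3.3 (lmFit and eBayes, 21 residual degrees of freedom), with Benjamini-Hochberg adjustment over 19938 genes and a threshold of 0.05, for 7 comparisons. The fit was tested on simulated data. Every gene was to be named, and in each comparison Psmb5, Psmb6, Psmb7, Psma7, Psmc4, Psmd4, Psmd14, Psme1 to Psme4 and the 4 largest called changes described in full. The members and lists were chosen with earlier results of these data known. Same-numbered arrays were taken as pairs where all their deviations correlated above 0.1. This held for IL-22 and untreated (0.31 to 0.62), mCherry-Fc and untreated (0.26 to 0.47) and GFP-mCherry and mCherry-Fc (0.11 to 0.27), from the data and not from a label. In these comparisons, in that order, 2, 1 and 1 of the 3 same-numbered arrays of the first group correlated best with their own number. Alternatives covered scaling, filters, probe sets, variance models, blocks, replicate ranges and leaving out each array. The filter at a mean of at least 9 was chosen after seeing the data. Promoters came from RefSeq (GRCm38.p6).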

Additional observations from a re-analysis of the deposited data

Results flagged for a closer look

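In 6 of 90 gene and group combinations tested, 1 array stood far from the others of its group by Dixon's criterion, which chance gives in about 1 in 20. Psmb4 read 9.53 on untreated synthetic replicate 9, against 9.66 to 9.72 on the others. Psmc4 read 10.08 on GFP-mCherry replicate 11, against 9.97 to 10.00. Psmd14 read 11.20 on GFP-mCherry replicate 12, against 11.07 to 11.10. Psmd4 read 9.21 on IL-22 replicate 5, against 9.16 on each of the others. Psme3 read 10.71 on IL-22 replicate 5, against 11.10 to 11.14. Psme4 read 10.51 on mCherry-Fc replicate 10, against 10.61 to 10.64.

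The response to GFP-mCherry in synthetic receptor cells exceeded the response to IL-22 in natural receptor cells, by limma's test of the difference, for Psmb1 (0.55), Psmd10 (0.44), Psmb5 (0.43), Psmb7 (0.43), Psma7 (0.41), Psmb4 (0.41), Psmb3 (0.33) and Psmd1 (0.32). The response to mCherry-Fc exceeded it for Psmd10 (0.48), Psmb1 (0.38), Psmb4 (0.36), Psmb7 (0.33), Psmd1 (0.33) and Psma7 (0.28). Line, receptor and ligand cannot be told apart in these differences.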

How the results depend on the processing

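Of 3320 values of 118 member results under the alternatives, 3125 kept their direction and their side of the threshold, 137 lost a call, 57 gained one and 1 reversed: Psmc5 between untreated lines within high replicate numbers (0.03, adjusted p = 0.836). Of 67 calls, 25 held under every alternative run. The count of called members with IL-22 was 1 with its own groups alone, 1 with a fixed replicate block, 1 within low and 0 within high numbers, and 1 to 5 without 1 array. With GFP-mCherry it was 14 where at least 1.2-fold was also asked, and 20 to 29 without 1 array. With mCherry-Fc it was 32 with median centring, 13 at 1.2-fold, and 18 to 25 without 1 array, with a random replicate block 22 rose and 1 (Psmb11) fell, and with the number range as a term 24 rose and 1 (Psmd5) fell. Between GFP-mCherry and mCherry-Fc it was 1 within low numbers and 0 without any 1 array. For the excess of the GFP-mCherry change over that with IL-22 it was 13 with centring, 14 with the number range as a term, 16 within low and 1 within high numbers, and 7 to 10 without 1 array. For mCherry-Fc minus IL-22 it was 14 within low and 1 within high numbers, and 6 to 7 without 1 array. Between untreated lines it was 3 with centring, 3 with own groups alone and 3 at 1.2-fold. It was 11 at a mean of at least 7 (4 of them higher) or 9 (3 of them higher). Within low and high numbers it was 11 and 16, and without 1 array 5 to 8. The high range holds 1 IL-22 array, assumed to vary like the other groups. Numbers did not pair GFP-mCherry with untreated arrays (r of -0.15 to 0.42, 4 of 6 above 0.1, and 2 of 6 arrays correlating best with their own number), and there the fixed replicate block gave 27 calls against 24. Beyond the calls named in the report, the block changed counts by less than 1.5 times. A fixed block and a range term could not be fitted between the lines, which share no number.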
